A study of Homo sapiens with 151 samples.

Results

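The 9 genes described here encode transcription factors (TFs) known as master regulators of liver cells: the nuclear receptors HNF4A and NR5A2, the forkhead factors FOXA1, FOXA2 and FOXA3, the CCAAT-enhancer binding proteins CEBPA and CEBPB, the cut-homeobox factor ONECUT1 and the homeobox factor PROX1. They were chosen by name from the annotation, as 9 of 38899 protein-coding and lncRNA genes (20033 protein-coding), and by no cutoff on a measured value. Earlier results of these data were known when they were chosen. The data are ChIP-seq peak lists of DNA-associated proteins (DAPs) in HepG2 cells, an established line from a human liver tumour. In each the DAP carried a FLAG epitope tag that was pulled down with the anti-FLAG M2 antibody. All lists share this cell line, tag and antibody, and no treatment is named. Of 151 samples, 127 are DAP lists and 24 are input libraries, which had no pulldown. The 121 lists that the study marked as preferred (15 non-TF DAPs, the rest TFs) are used throughout, and 6 non-preferred lists are given apart. Each DAP has 1 list, so no value has a replicate, and intervals cover counting error over lists only. The preferred lists held 195 to 61748 peaks, with a median of 8680, and the depth of sequencing is unknown. None of the 9 genes' own products is among the tagged DAPs, and RNA levels of the 9 genes were not analysed here.

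Liver identity is known to rest on a small set of TFs that bind each other's genes. FOXA proteins open chromatin as pioneer factors, HNF4A drives hepatocyte genes, CEBPA and CEBPB act in metabolism and in the acute phase response, ONECUT1 (also called HNF6) acts early in liver and biliary development, PROX1 is a homeobox factor of hepatoblasts and lymphatic cells, and NR5A2 (LRH-1) acts in bile acid synthesis. HNF4A is transcribed from separate promoters, of which P1 is known as the promoter of the adult liver and P2 as that of pancreas and fetal liver. GENCODE 44 takes the start at P2 as the canonical one.

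The promoters of HNF4A, CEBPB, CEBPA and NR5A2 are shown first, because they span the most-bound to the unbound members. Sequences are RefSeq promoters of build GRCh38.p14, identical to hg38 at these places, written 5′ to 3′ on the gene's strand. The P2 and CEBPA sequences end 1 bp before the canonical TSS, the CEBPB sequence, the farther upstream of its RefSeq promoters, ends 248 bp before it, the P1 sequence ends just before the start of transcript HNF4A-201, and the NR5A2 sequence is cut short at the start of transcript NR5A2-201, 97 bp before the canonical TSS. Capitals mark matches, on either strand, of the CCAAT box (CCAAT), the GC box (GGGCGG), the TATA box (TATAAA), the ONECUT word (ATTGATT), the FOXA word (TNTTTAC), the C/EBP word (TTGCNNAA), the HNF4 word (CAAAGTC), the NR5A2 word (AAGGTCA), the E-box (CACGTG), the AP-1 word (TGANTCA) and the CRE word (TGACG). The printed matches do not overlap each other. The FOXA2 and PROX1 promoters are not among the sequences used.
HNF4A P2, chr20:44355449-44355698, plus strand: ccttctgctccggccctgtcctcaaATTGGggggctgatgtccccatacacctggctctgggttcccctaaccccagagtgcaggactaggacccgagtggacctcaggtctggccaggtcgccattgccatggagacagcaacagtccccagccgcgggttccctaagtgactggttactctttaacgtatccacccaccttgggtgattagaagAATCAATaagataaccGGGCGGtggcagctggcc
HNF4A P1, chr20:44400989-44401238, plus strand: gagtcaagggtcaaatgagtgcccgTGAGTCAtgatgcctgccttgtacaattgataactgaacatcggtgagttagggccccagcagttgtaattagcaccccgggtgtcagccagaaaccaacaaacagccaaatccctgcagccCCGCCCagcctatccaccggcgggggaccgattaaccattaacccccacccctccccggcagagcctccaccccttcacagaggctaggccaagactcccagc
CEBPB, chr20:50190333-50190582, plus strand: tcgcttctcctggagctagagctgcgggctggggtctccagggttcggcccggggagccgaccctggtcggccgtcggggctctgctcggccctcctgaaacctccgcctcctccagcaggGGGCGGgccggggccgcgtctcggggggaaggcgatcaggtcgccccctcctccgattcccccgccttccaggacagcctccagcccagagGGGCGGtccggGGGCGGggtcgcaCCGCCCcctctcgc
CEBPA, chr19:33302535-33302784, minus strand: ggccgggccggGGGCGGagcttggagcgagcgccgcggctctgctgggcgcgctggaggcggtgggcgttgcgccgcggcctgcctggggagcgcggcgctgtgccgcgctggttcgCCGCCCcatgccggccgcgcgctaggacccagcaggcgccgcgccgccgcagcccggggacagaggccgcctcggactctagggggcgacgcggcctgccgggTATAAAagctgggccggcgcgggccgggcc
NR5A2, chr1:200027460-200027613, plus strand: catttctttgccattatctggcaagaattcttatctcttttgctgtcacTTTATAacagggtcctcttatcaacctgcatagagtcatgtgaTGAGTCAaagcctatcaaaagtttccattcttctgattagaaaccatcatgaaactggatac

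Among 35116 promoters of the same source and a length of 250 bases, 1.98% hold the ONECUT word, 42.6% the GC box, 32.0% the CCAAT box, 10.7% the TATA box and 6.57% the AP-1 word. The P1 promoter of HNF4A held 1 GC box, at position 148, and 1 AP-1 word, at position 26. The P2 promoter held 1 ONECUT word at position 217, 1 GC box and 1 CCAAT box. The CEBPB promoter held 4 GC boxes. The CEBPA promoter held 2 GC boxes and 1 TATA box at position 221, and its 250 bases had a GC content of 81.2%. The 154 bases before NR5A2 held 1 TATA box and 1 AP-1 word, at position 93, and had a GC content of 37.0%, in a shorter window than that of the background shares. No other word of those listed matched in these sequences. A match describes letters and is no evidence of a bound site.

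The first comparison asks how many DAPs had a peak within 500 bp of each canonical transcription start site (TSS). The study used this distance in its binding-expression models, around the RefSeq start of each gene's most highly expressed transcript. Its reporter assay defined promoters otherwise. The start used here is the canonical one of GENCODE, whatever its expression in HepG2 cells. In hg38 the canonical TSSs lie on chromosome 20 at 44355699 (HNF4A, plus strand), 22584572 (FOXA2, minus) and 50190830 (CEBPB, plus), and on chromosome 19 at 45864326 (FOXA3, plus) and 33302534 (CEBPA, minus). Those of PROX1 and NR5A2 are on the plus strand of chromosome 1, at 213987973 and 200027710, that of FOXA1 is at 37595249 on the minus strand of chromosome 14, and that of ONECUT1 at 52790336 on the minus strand of chromosome 15. The HNF4A promoter was bound in 88 lists, CEBPB in 68, FOXA1 in 62, FOXA2 and CEBPA in 48 each, ONECUT1 in 36, FOXA3 in 30, PROX1 in 14 and NR5A2 in 0. As shares of the 121 lists these are 72.7% for HNF4A (95% Wilson interval 64.2 to 79.9), 56.2% for CEBPB (47.3 to 64.7), 51.2% for FOXA1 (42.4 to 59.97) and 39.7% for FOXA2 and for CEBPA (31.4 to 48.6). The shares were 29.8% for ONECUT1 (22.3 to 38.4), 24.8% for FOXA3 (17.95 to 33.2), 11.6% for PROX1 (7.02 to 18.5) and 0% for NR5A2 (0 to 3.08). The intervals of neighbours in this order overlapped, apart from those of PROX1 and NR5A2. The same 121 lists were scored at every promoter, so the counts are paired. Overlap of separate intervals therefore does not show that 2 counts are alike, and differences between genes were not tested. Of the 9 promoters, 6 were bound in at least 31 lists (25% of the lists), beside 36.9% of all 20033 coding promoters. With peaks of a score of at least 830, 3 of the 9 reached 31 lists (HNF4A 63, CEBPB 48 and FOXA1 43), beside 16.98% of coding promoters, and with a q column of at least 2, 4 of the 9 did, beside 28.01%.

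**Figure D1:**
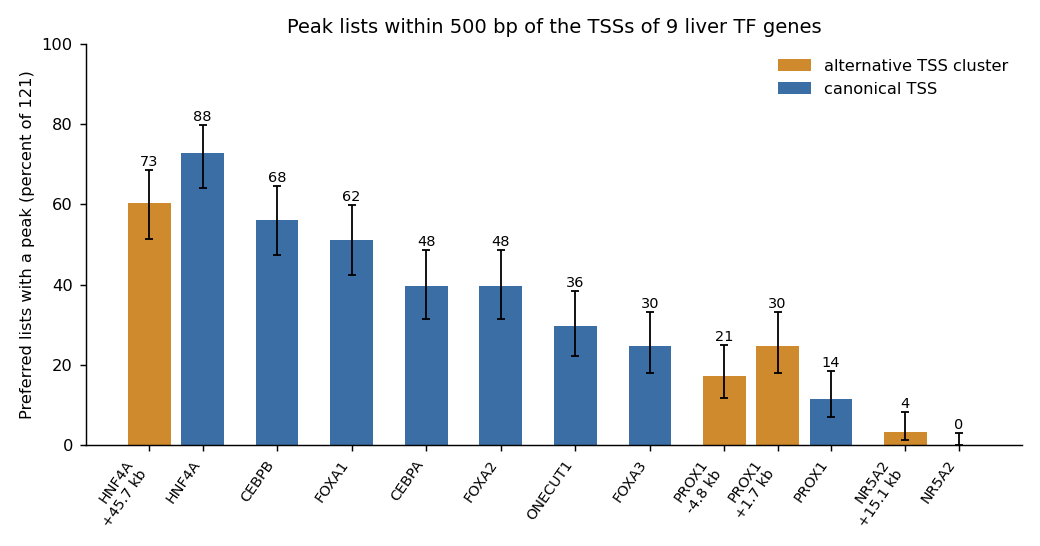
Percent of the 121 preferred lists (vertical axis) with a peak within 500 bp of each TSS of the 9 genes (horizontal axis); orange bars are alternative TSS clusters with their distance from the canonical TSS, blue bars are canonical TSSs, error bars are 95% Wilson intervals and the number above each bar is its count of lists. Canonical counts run from 88 lists at HNF4A to 0 at NR5A2.

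The median of the 9 promoters was 48 lists. It was 23.5 lists over 22 other liver TF genes, 0 lists over 20 TF genes of other lineages, and 15 lists over all coding promoters (quartiles 0 and 43). HNF4A had more lists than 98.1% of coding promoters, CEBPB than 92.4%, FOXA1 than 89.2%, FOXA2 and CEBPA than 79.0% each, ONECUT1 than 67.6%, FOXA3 than 62.0% and PROX1 than 48.6%. Among the other liver TF genes, NR0B2 (small heterodimer partner, a repressor of bile acid synthesis) had 82 lists, ATF5 81 and TBX3 61. Of the same group NR1I2 (the pregnane X receptor) had 3 lists and HNF4G had 0. Of the 20 TF genes of other lineages 13 had no list, the ones with most were NKX2-1 with 13, PDX1 with 6 and TBX21 with 6, and 0 reached 31 lists.

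**Figure D2:**
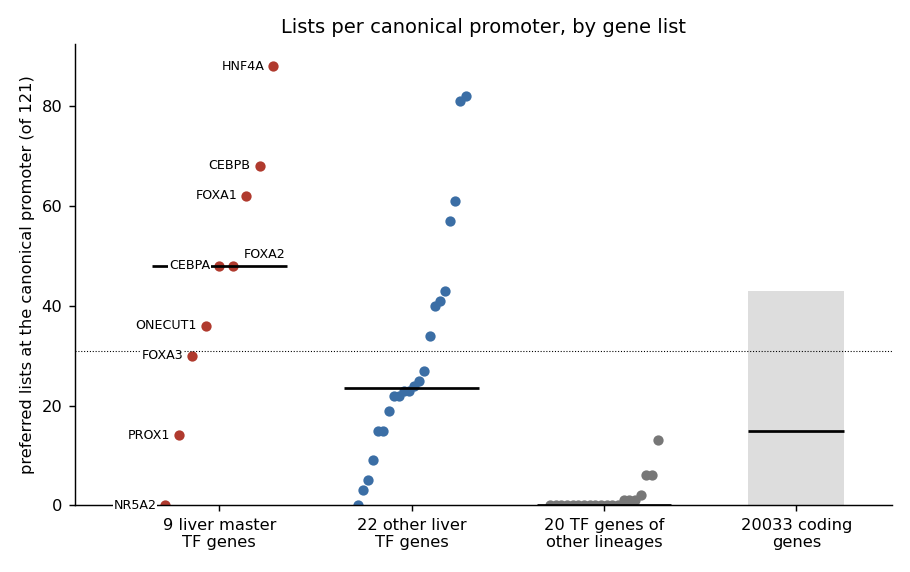
Preferred lists at the canonical promoter (vertical axis, of 121) for 4 sets of genes (horizontal axis); each point is a gene, black lines are medians, the grey box spans the quartiles of all coding genes and the dotted line marks 31 lists. The liver master TF genes run from 0 to 88 lists, with a median of 48, and the TF genes of other lineages from 0 to 13.

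Base composition differed among the members. Of the 9 promoters, 7 met a CpG rule (GC content over 0.5 and observed over expected CpG over 0.6, as fractions), beside 12976 of the 20033 coding promoters. HNF4A and NR5A2 did not meet it. HNF4A had a GC content of 59.0% and an observed over expected CpG of 0.37, and NR5A2 had 34.4% and 0.068. Coding promoters that met the rule had a median of 33 lists, and 52.6% of them reached 31 lists, against a median of 0 lists and 8.15% reaching 31 in those that did not. Among coding promoters that met the rule, CEBPB had more lists than 89.0%, FOXA1 than 84.5% and FOXA2 and CEBPA than 69.8% each. ONECUT1 had more than 53.8% of them, FOXA3 than 46.0% and PROX1 than 29.1%. The part of base composition in the counts was not tested.

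The HNF4A promoter was bound by 24 of the 34 KRAB zinc finger lists, 21 of 27 other zinc finger lists, 34 of 45 other TF lists and 9 of 15 non-TF lists. KRAB zinc finger proteins are mostly known as repressors of transposable elements. The 88 lists had a median of 11833 peaks, against a median of 3235 peaks in the 33 lists without one. The non-TF lists without a peak at the HNF4A promoter were CENPX, MED13L, PHTF1, RCOR3, SLC30A9 and TRIM24. Of the KRAB zinc finger lists these were ZNF140, ZNF251, ZNF284, ZNF334, ZNF439, ZNF544, ZNF559, ZNF688, ZNF75D and ZNF783. Of the other zinc finger lists these were MZF1, PRDM4, ZBTB22, ZNF280C, ZNF853 and ZSCAN12, and of the other TF lists E2F7, ELK4, FAM200B, FOSL1, GLMP, LHX6, MLXIP, NFIB, SCMH1, TEAD2 and YBX3.

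The CEBPB promoter was bound by 13 of the 15 non-TF lists, by 14 of 34 KRAB zinc finger lists, by 13 of 27 other zinc finger lists and by 28 of 45 other TF lists. Non-TF lists with a peak included MED12 and MED13L, subunits of the kinase module of the Mediator complex, KAT6A, a histone acetyltransferase, RCOR3, a member of the CoREST repressor family, and PRMT5, an arginine methyltransferase. The 68 lists had a median of 12698 peaks, against 4232 in the 53 lists without. Lists without a peak at the CEBPB promoter were, of non-TF DAPs, CENPX and ZNF593. Among the KRAB zinc finger lists they were HKR1, ZNF18, ZNF222, ZNF251, ZNF284, ZNF334, ZNF439, ZNF45, ZNF529, ZNF552, ZNF559, ZNF571, ZNF669, ZNF688, ZNF74, ZNF75D, ZNF783, ZNF790, ZNF85 and ZNF879. Among the other zinc finger lists they were E4F1, HIC2, PEG3, ZBTB22, ZBTB47, ZFAT, ZNF148, ZNF280C, ZNF704, ZNF827, ZNF853, ZNF865, ZSCAN12 and ZUP1. Among the other TF lists they were DPF1, E2F7, EBF1, ELK3, FAM200B, FOXO4, HES6, HMGN3, JRK, LHX6, NFIB, NR1H2, SCMH1, SP110, STAT5A, THAP1 and YBX3.

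The FOXA1 promoter was bound by 8 of the 15 non-TF lists, 14 of 34 KRAB zinc finger lists, 17 of 27 other zinc finger lists and 23 of 45 other TF lists. Of the tagged forkhead proteins, FOXC1 had a peak there and FOXO4 had none. The non-TF lists without a peak at the FOXA1 promoter were CENPX, MED12, MED13L, PRMT5, TRIM24, ZMYM2 and ZNF593. Of the KRAB zinc finger lists these were ZFP90, ZNF140, ZNF160, ZNF18, ZNF222, ZNF235, ZNF251, ZNF284, ZNF334, ZNF439, ZNF45, ZNF529, ZNF546, ZNF558, ZNF559, ZNF669, ZNF688, ZNF74, ZNF75D and ZNF783. Of the other zinc finger lists these were MZF1, PEG3, PRDM4, ZBTB22, ZBTB47, ZNF148, ZNF219, ZNF280C, ZNF853 and ZUP1, and of the other TF lists CAMTA1, DPF1, E2F7, ELK4, FAM200B, FOSL1, FOXO4, GLMP, HES6, HMGN3, LHX6, MGA, NCOA1, NCOA2, NFIB, NR1H2, SCMH1, SP110, TEAD2, TTF1, YBX3 and ZGLP1.

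The FOXA2 promoter was bound in 48 lists, which had a median of 13695 peaks, against 5486 in the 73 without. Lists with a peak at the FOXA2 promoter were, of non-TF DAPs, AFF1, KAT6A, MED12, MED13L, PHTF1, RCOR3, SMAD7, ZMYM4 and ZNF593. Among the KRAB zinc finger lists they were ZFP90, ZNF222, ZNF235, ZNF284, ZNF45, ZNF529, ZNF544, ZNF552, ZNF558, ZNF669, ZNF701, ZNF746, ZNF790 and ZNF816. Among the other zinc finger lists they were E4F1, HIC2, PRDM4, SALL1, SALL2, ZBTB12, ZFP91, ZIM2, ZNF329, ZSCAN12 and ZSCAN25. Among the other TF lists they were BAZ2A, CAMTA1, E2F8, GLMP, GLYR1, HES4, HES6, HSF4, MEIS2, MLXIP, POU2F1, SIX5, SRY and TTF1.

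The CEBPA promoter was also bound in 48 lists, 20 of which are KRAB zinc finger lists. It shared 31 lists with FOXA2, which is 64.6% of each set, beside 39.7% of all 121 lists at either promoter taken singly. The non-TF lists with a peak at the CEBPA promoter were MED12, SMAD7, ZMYM4 and ZNF593. Of the KRAB zinc finger lists these were HKR1, ZFP90, ZNF160, ZNF18, ZNF222, ZNF235, ZNF430, ZNF439, ZNF528, ZNF529, ZNF544, ZNF546, ZNF558, ZNF571, ZNF701, ZNF746, ZNF747, ZNF790, ZNF816 and ZNF85. Of the other zinc finger lists these were E4F1, SALL1, SALL2, ZFP91, ZNF329, ZNF865, ZSCAN12 and ZSCAN25, and of the other TF lists CAMTA1, E2F8, FAM200B, FOXC1, GLYR1, HES4, HES6, MEIS2, MGA, MLXIP, NPAS2, NR1H2, PAX8, POU2F1, SIX5 and SRY.

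At the ONECUT1 promoter 36 lists had a peak. Lists with a peak at the ONECUT1 promoter were, of non-TF DAPs, AFF1, MED12, ZMYM4 and ZNF593. Among the KRAB zinc finger lists they were ZNF18, ZNF222, ZNF251, ZNF430, ZNF528, ZNF546, ZNF701, ZNF747, ZNF85 and ZNF879. Among the other zinc finger lists they were SALL1, ZBTB12, ZBTB47, ZIM2, ZNF329, ZNF827 and ZNF865. Among the other TF lists they were BAZ2A, E2F8, FAM200B, FOXC1, HES4, L3MBTL4, MEIS1, MGA, MLXIP, NCOA2, SP110, SRY, STAT5A, TEAD2 and ZGLP1.

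At the FOXA3 promoter 30 lists had a peak, and the same lists all had a peak at HNF4A, where they make up 34.1% of the 88. Of all 121 lists, 72.7% were at HNF4A. The non-TF lists with a peak at the FOXA3 promoter were AFF1, MED12 and ZMYM2. Of the KRAB zinc finger lists these were ZNF430, ZNF529, ZNF546, ZNF558, ZNF571, ZNF669, ZNF701 and ZNF816. Of the other zinc finger lists these were E4F1, PEG3, SALL1, SALL2, ZBTB12, ZFP91, ZNF219, ZNF275 and ZSCAN25, and of the other TF lists CAMTA1, E2F8, FOXC1, HES4, MEIS1, MEIS2, MGA, POU2F1, SIX5 and SP110.

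At the PROX1 promoter 14 lists had a peak: AFF1, REV3L and ZMYM4 of the non-TF lists, ZNF430 and ZNF544 of the KRAB zinc finger lists, SALL1, ZFP91, ZNF219, ZNF275, ZNF646 and ZSCAN25 of the other zinc finger lists, and FOXC1, NCOA2 and POU2F1 of the other TF lists. These lists were long, with a median of 21162.5 peaks, against 7451 in the 107 without. All 14 were also at CEBPB, where they make up 20.6% of its 68. Of all 121 lists, 56.2% were at CEBPB.

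**Figure D3:**
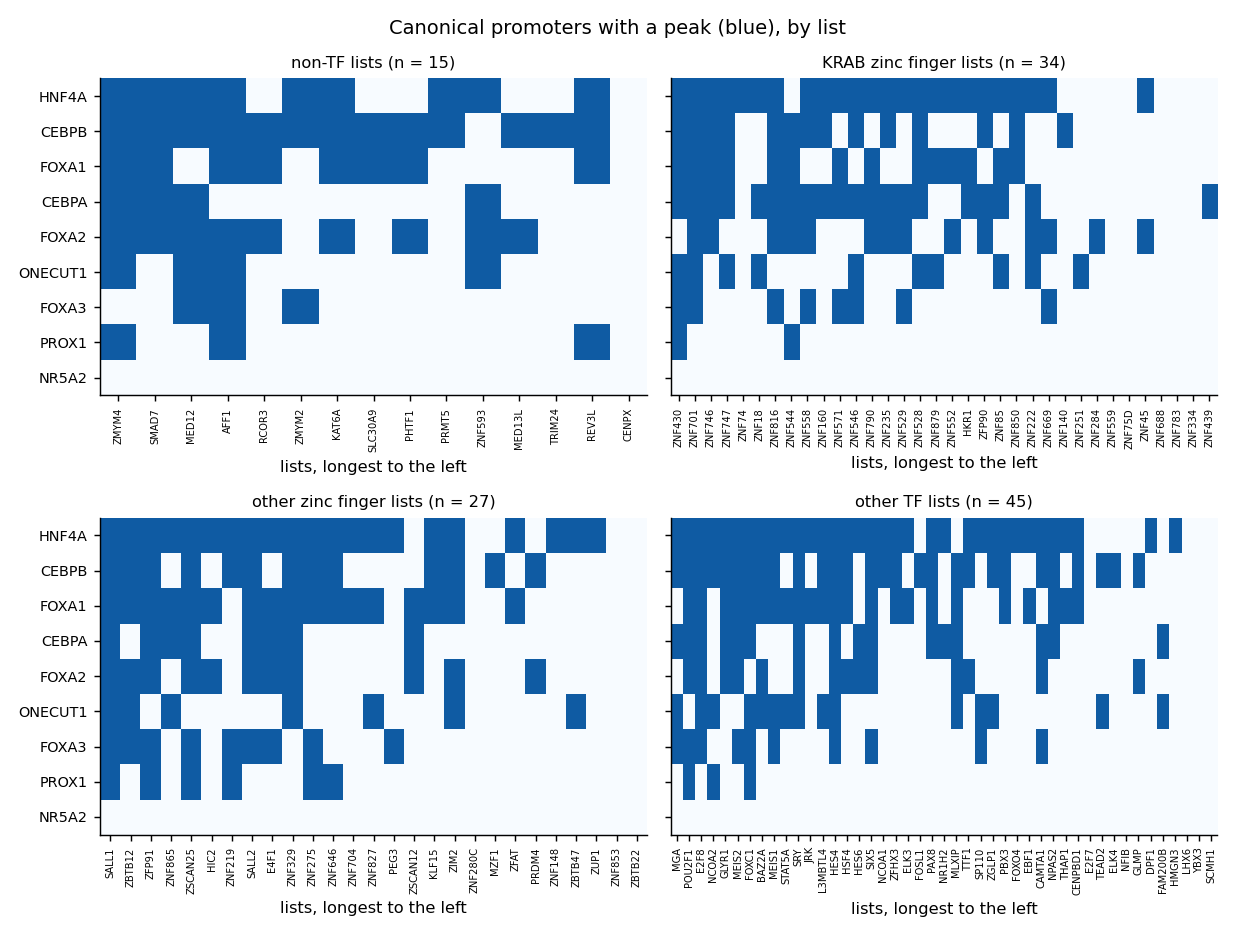
Canonical promoters of the 9 genes (rows) with a peak in blue for each of the 121 preferred lists (columns), in 4 panels by family, each with the longest list at the left. Filled cells gather at the left of every panel, and the NR5A2 row holds none.

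Across lists, the number of member promoters bound was higher in longer lists, with a Spearman rho of 0.80 against the peak count and a Pearson r of 0.78 against its log10 over 121 lists, given as a description since the lists share cell line, input libraries and depth limits. The 14 lists at no member promoter had a median of 1190.5 peaks, and the 22 lists at 3 member promoters a median of 8818.5. SALL1, the longest list with 61748 peaks, was at 8 member promoters, every one but NR5A2, and at 55.03% of all coding promoters. The lists at 7 promoters were AFF1, E2F8, FOXC1, HES4, POU2F1, ZFP91, ZMYM4, ZNF430, ZNF701 and ZSCAN25, of which HES4 was the shortest with 13641 peaks. They were at 30.7% (ZSCAN25) to 53.0% (ZFP91) of all coding promoters. ZNF74 was at 1 member promoter, HNF4A, with 16934 peaks, although it was at 30.2% of all coding promoters. The median was 3 member promoters in each of the 4 families, and 35 lists were at 5 or more.

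Pairs of members shared lists in uneven shares. FOXA1 and HNF4A shared 56 lists, 90.3% of those at FOXA1 and 63.6% of those at HNF4A. CEBPB and HNF4A shared 54, 79.4% of those at CEBPB and 61.4% of those at HNF4A. ONECUT1 and FOXA2 shared 15, 41.7% of those at ONECUT1 and 31.3% of those at FOXA2. With the HNF4A set in 88 of the 121 lists, a high share of any other set is to be read against 72.7%. In the same way, the share of a set that was at CEBPB is to be read against 56.2%, at FOXA1 against 51.2%, at FOXA2 against 39.7% and at ONECUT1 against 29.8%.

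The promoters most alike in their set of lists, on other chromosomes, were ranked by the Jaccard index, the shared lists over the lists at either promoter. For HNF4A they were FOXN2 (76 shared lists, Jaccard 0.79) and MRPL44 (82, 0.79), beside a median of 0.39 over 10589 coding promoters. For FOXA1 they were DDX42 (56, 0.68) and JMJD4 (56, 0.67). For FOXA2 they were SPRYD3 (36, 0.57) and LNP1 (39, 0.56), for FOXA3 EEPD1 (22, 0.56) and MRPS30 (24, 0.52), and for CEBPA CCNJ (39, 0.63) and TXNL4A (40, 0.60). For CEBPB they were CILK1 (63, 0.67) and MTF2 (66, 0.67), for ONECUT1 AFG3L2 (31, 0.52) and HEY2 (24, 0.47), and for PROX1 HPX (8, 0.44) and KIF12 (10, 0.43). The median index over coding promoters was 0.40 for FOXA1, 0.37 for CEBPA and for CEBPB and 0.35 for FOXA2. It was 0.31 for FOXA3, 0.29 for ONECUT1 and 0.17 for PROX1. Likeness here depends on the number of lists, and no shared role is implied.

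Lists were then compared by kind. Each of 15889 canonical promoters with at least 5 lists was tested by Fisher's exact test, two-sided, with Benjamini-Hochberg adjustment over all of them. Non-TF lists against TF lists gave 0 promoters called (0%), with 467 at an unadjusted p under 0.05, and KRAB zinc finger lists against other TF lists gave 0 called (0%), with 375 at an unadjusted p under 0.05. A test stratified by tertile of list length gave 0 called in both comparisons, with 259 and 395 at an unadjusted p under 0.05. The CEBPB promoter had a peak in 13 of 15 non-TF lists (86.7%), against 55 TF lists (51.9% of them), a difference of 34.8 percentage points by Fisher's exact test (p = 0.0122, adjusted p = 1), and the test stratified by list length gave p = 0.0629. The CEBPA promoter had a peak in 20 of 34 KRAB zinc finger lists (58.8%), against 24 of 72 other TF lists (33.3%), a difference of 25.5 percentage points by Fisher's exact test (p = 0.0197, adjusted p = 1), which was 8.42 points with peaks of a score of at least 830. Across all promoters tested, the median difference was 4.09 points for non-TF minus TF lists and -1.14 points for KRAB zinc finger minus other TF lists.

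How strongly the promoters were bound was read from the rank of the strongest promoter peak by signal within its own list, as a percentile where 100 would be the strongest. HNF4A peaks had a median percentile of 77.8 (lowest 1.04, highest 97.9), and 25 of the 88 were in the top 10% of their list. CEBPB peaks had a median of 77.7 (lowest 0.63, highest 99.0), with 13 of 68 in the top 10%. FOXA1 had a median of 64.2 (0.12 to 97.4) with 8 lists in the top 10%. The other medians were 57.9 for ONECUT1 (17.8 to 95.3), 56.3 for CEBPA (8.49 to 98.5), 48.9 for FOXA2 (1.85 to 99.0), 44.7 for FOXA3 (13.8 to 95.1) and 43.3 for PROX1 (15.4 to 99.4). Over all coding promoters with at least 5 lists, the median of such medians was 58.5 (quartiles 47.9 and 69.3), so HNF4A and CEBPB lie above the upper quartile and FOXA3 and PROX1 below the lower one. Over coding promoters with at least 31 lists it was 65.9. Of the members with that many lists, HNF4A and CEBPB lie above this value and FOXA1, ONECUT1, CEBPA and FOXA2 below it. In single lists, AFF1 ranked its HNF4A peak at 97.9, ZNF430 its CEBPB peak at 99.0, ZNF746 its FOXA2 peak at 99.0 and ZSCAN25 its PROX1 peak at 99.4.

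The place of the summits differed between genes. At CEBPB, 53 of 68 summits lay within 200 bp of the TSS, downstream of it by 13 to 180 bp, and their median percentile was 81.5. Another 14 CEBPB summits lay more than 200 bp upstream, with a median percentile of 37.1. At HNF4A, 72 of 88 lay within 200 bp, with a median of 55 bp downstream. At CEBPA, 39 of 48 lay within 200 bp, with a median of 15 bp upstream of the TSS, and 9 lay farther upstream.

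At FOXA1 the summits fell in 3 groups: 25 lists more than 200 bp downstream (median 655 bp), 19 within 200 bp (median 59 bp upstream) and 18 more than 200 bp upstream (median 435 bp). Many of these peaks overlap the 500 bp window without their summit in it, and counting only summits inside it gave FOXA1 38.0% of lists in place of 51.2%. The downstream group at FOXA1 held HES4, HSF4, KLF15, POU2F1, SIX5, STAT5A and ZFAT, among others. At FOXA2, 20 summits lay more than 200 bp upstream (median percentile 35.2), 15 within 200 bp and downstream (68.7) and 13 farther downstream (55.3). At ONECUT1, 17 summits lay more than 200 bp upstream, between 203 and 332 bp, and 14 within 200 bp with a median of 163 bp upstream. At FOXA3, 24 of 30 lay within 200 bp, and at PROX1 12 of 14.

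**Figure D4:**
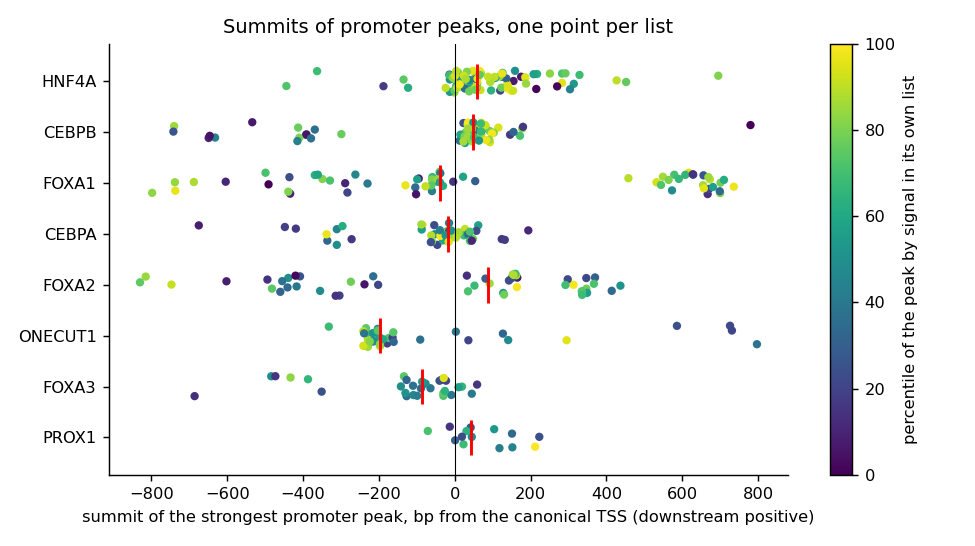
Summit of the strongest promoter peak of each list, in bp from the canonical TSS with downstream positive (horizontal axis), for 8 genes (vertical axis), coloured by the peak's percentile by signal in its own list; red lines are medians. The 53 CEBPB summits within 200 bp lie just downstream of the TSS, while the FOXA1 summits fall in 3 groups.

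The alternative promoters answer whether other starts of the same gene are bound by other DAPs. Each alternative TSS cluster of coding genes was compared with the canonical TSS of its gene over the same lists, by an exact McNemar test (two-sided), for 11123 clusters with at least 5 discordant lists. Of these, 92.3% were called at an adjusted p of at most 0.05, 84.8% lower and 7.52% higher than the canonical promoter, so a call by itself is common. Among the 9 genes, HNF4A, NR5A2 and PROX1 have alternative clusters by this rule, 4 in all.

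At HNF4A the P1 cluster lies 45698 bp downstream of the canonical TSS. It had 73 lists (60.3%, interval 51.4 to 68.6), against 88 lists at P2. Of the 121 lists 17 were at P1 alone, 32 at P2 alone, 56 at both and 16 at neither (adjusted p = 0.0481, exact McNemar test), which places it among the 84.8% called lower. Within 8 input libraries that each serve at least 6 lists (69 lists), P1 had fewer lists in 6 and more in 2. Peaks at P1 ranked at a median percentile of 65.5 (10.0 to 99.6), with 9 lists in the top 10%, against 77.8 at P2.

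Lists at P1 alone were E2F7, FAM200B, FOSL1, GLMP, MED13L, MZF1, PHTF1, RCOR3, TEAD2, TRIM24, YBX3, ZNF140, ZNF251, ZNF280C, ZNF284, ZNF544 and ZSCAN12, with a median of 4553 peaks. TEAD2 is a partner of the Hippo pathway coactivators, FOSL1 an AP-1 subunit and TRIM24 a coregulator of nuclear receptors. Lists at P2 alone, with a median of 5820 peaks, included NCOA1 and NCOA2, coactivators of nuclear receptors, NR1H2, a liver X receptor, MEIS1 and PBX3, homeobox partners, and EBF1, E4F1, FOXO4, HES6, NPAS2, THAP1 and TTF1. Alone refers to the promoter windows only. Of those named, NCOA1, NCOA2, NR1H2, MEIS1, E4F1, FOXO4 and THAP1 were also in a region 47166 bp downstream, just past P1. PBX3, EBF1, HES6, NPAS2 and TTF1 were not in that region.

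PROX1 had 14 lists at its canonical TSS. The alternative cluster 1745 bp downstream had 30 lists (24.8%, interval 17.95 to 33.2), against the 14 canonical ones; 21 lists were at the alternative start alone, 5 at the canonical alone and 9 at both (adjusted p = 0.00297, exact McNemar test), which places it among the 7.52% called higher. Within the 8 input libraries it had more lists in 5 and equal numbers in 3. Of the 30 lists, E2F8, GLYR1, HES4, HIC2, HSF4, KAT6A, L3MBTL4, MED12, MEIS1, PRMT5, RCOR3, SLC30A9, SRY, STAT5A, ZBTB12, ZNF284, ZNF329, ZNF701, ZNF746, ZNF747 and ZNF816 were not at the canonical start. The cluster 4792 bp upstream had 21 lists, against 14, with 16 alone there and 9 alone at the canonical start (adjusted p = 0.239, exact McNemar test).

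At NR5A2 the canonical promoter had 0 of 121 lists, which allows up to 3.08% by the Wilson interval. Its alternative cluster 15115 bp downstream had 4 lists, MGA, SALL1, ZFP91 and ZMYM4, with a median of 44813 peaks, and had too few discordant lists to be tested. Other annotated starts, of coding or non-coding transcripts and mostly near the canonical one, changed several counts. FOXA1-205, 810 bp upstream of the canonical start, had 86 lists, FOXA2-201, 883 bp upstream, had 62, and FOXA3-202, 337 bp upstream, had 38. Taking any annotated start, HNF4A was bound in 105 lists, FOXA1 in 91, FOXA2 in 71, CEBPB in 68, CEBPA in 48, PROX1 in 44, ONECUT1 in 41, FOXA3 in 38 and NR5A2 in 4.

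The last comparison takes the 50 kb on either side of each canonical TSS. Lists with a peak there numbered 116 for CEBPB, 112 for HNF4A, 108 for FOXA1, 105 for FOXA2, 91 for FOXA3, 88 for CEBPA, 57 for PROX1, 51 for ONECUT1 and 28 for NR5A2, beside a median of 54 over coding genes. Of the 121 lists, 119 had a peak within 50 kb of at least 1 of the 9 genes, all but SCMH1 and ZNF853. Merging the central 100 bp of all peaks gave 506 regions in the 9 windows, of which 38 (7.51%) held at least 31 lists. In the whole genome, 4.95% of 212005 regions did. Regions of that depth occurred within 50 kb of 58% of coding genes, with a median of 1 and an upper quartile of 2 per gene. CEBPB had 9, HNF4A 8, FOXA1 and FOXA2 6 each, FOXA3 and CEBPA 4 each, ONECUT1 1 and PROX1 and NR5A2 0. Of the 38, 29 lay more than 500 bp from every annotated start of their gene. Some of these were near the start of another gene, and not every such start is named below.

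**Figure D5:**
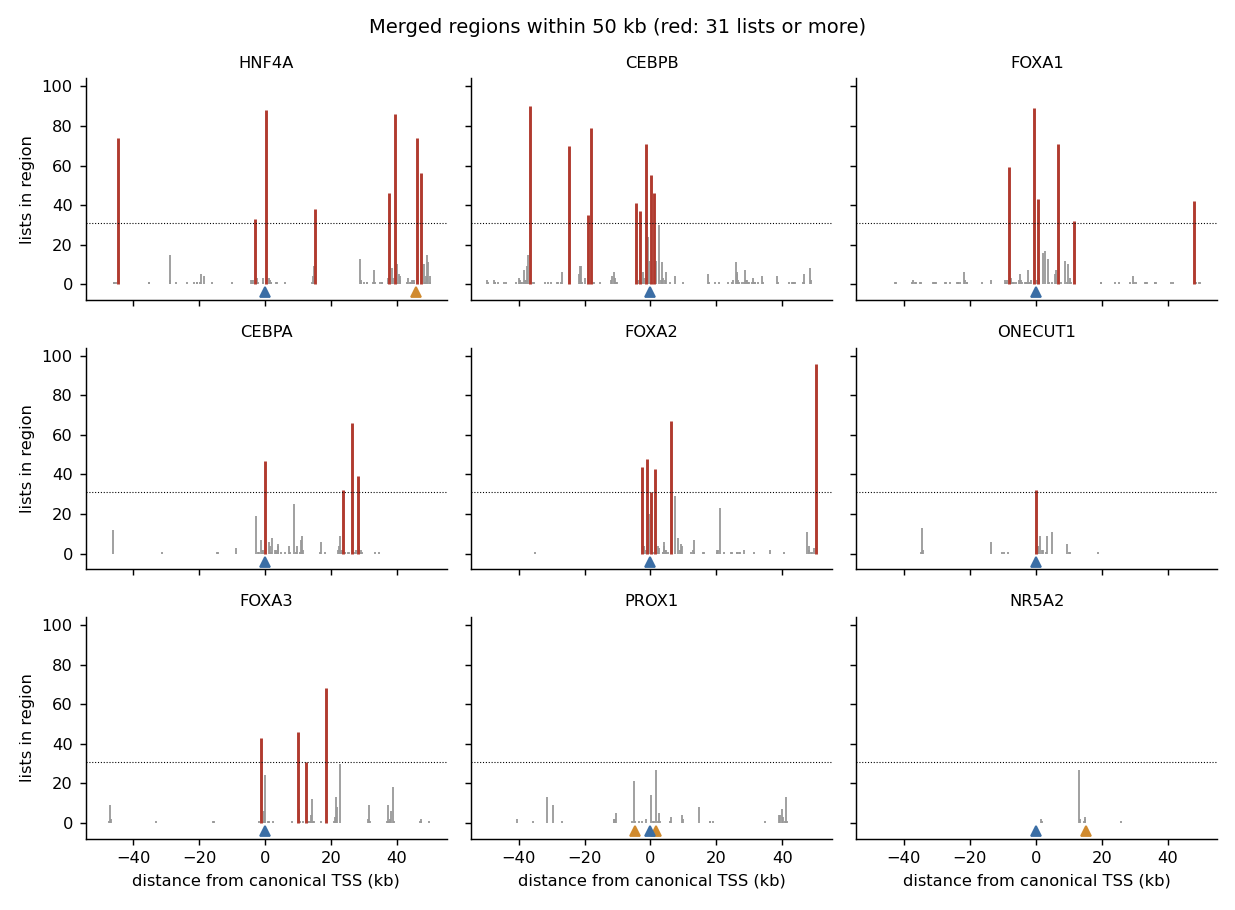
Preferred lists in each merged region (vertical axis) by distance of its centre from the canonical TSS in kb (horizontal axis), 1 panel per gene; red regions hold at least 31 lists (dotted line), grey ones fewer, blue triangles mark the canonical TSS and orange ones alternative clusters. CEBPB and HNF4A hold the most red regions, 9 and 8, and PROX1 and NR5A2 hold 0.

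The 8 HNF4A regions of at least 31 lists ran from 33 to 88 lists. Besides its canonical promoter (88) and P1 (74, centred 46016 bp downstream), a region 39229 bp downstream held 86 lists, 70 of them also at the canonical promoter. It lies in introns of HNF4A and of HNF4A-AS1, 778 bp from the start of HNF4A-AS1. A region 47166 bp downstream, in an HNF4A intron, held 56 lists, 1 at 37626 bp held 46, 1 at 15142 bp held 38 and 1 at 3245 bp upstream held 33. A region of 74 lists 44603 bp upstream lies in an exon of FITM2, whose start is the nearest to it.

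Of the 9 CEBPB regions, most lay upstream. The one with the most lists, also upstream, held 90 lists, of which 59 were also at the CEBPB promoter. Regions 18041 bp and 24800 bp upstream held 79 and 70 lists, near the starts of LINC01273 (980 bp) and LINC01275 (193 bp). A region 18958 bp upstream held 35 lists, 63 bp from the start of LINC01273. Near the gene, regions 1470 bp upstream, 169 bp downstream and 1035 bp downstream held 71, 55 and 46 lists. Those 4271 bp and 3147 bp upstream, in a CEBPB-AS1 intron, held 41 and 37.

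FOXA1's most-bound region, with 89 lists, is centred 607 bp upstream of its canonical TSS and 227 bp from the start of TTC6. Further regions lay 6808 bp downstream with 71 lists, 8049 bp upstream in a TTC6 intron with 59, 691 bp downstream with 43, 48139 bp downstream in an exon of MIPOL1 with 42, and 11551 bp downstream with 32. FOXA2's most-bound region held 96 lists, the highest of the 38, and was centred 50134 bp downstream, so at the very edge of the window, in intergenic sequence; 44 of the 96 were also at the FOXA2 promoter. A region 6255 bp downstream held 67 lists, 325 bp from the start of LINC00261. Regions 949 bp upstream, 2490 bp upstream, 1227 bp downstream and 235 bp downstream held 48, 44, 43 and 31.

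FOXA3 had 68 lists in a region 18483 bp downstream, 3332 bp from the start of IRF2BP1, of which 23 (33.8%) were also at its promoter. Regions 9840 bp and 12407 bp downstream held 46 and 31. A region of 43 lists 1175 bp upstream was centred 4 bp from the start of SYMPK, the gene next to it. CEBPA had 66 lists in an intergenic region 26321 bp downstream, more than the 47 in the region at its promoter, and 35 of the 66 were shared with that promoter. Regions 28067 bp and 23690 bp downstream held 39 and 32. The counts of lists shared with a promoter, here and for HNF4A, CEBPB and FOXA2 above, are to be read against that promoter's share of all lists. This share was 72.7% for HNF4A, 56.2% for CEBPB, 39.7% for FOXA2 and for CEBPA, and 24.8% for FOXA3. For 5 of the 6 genes with a region of at least 31 lists more than 2000 bp from its own starts, the most-bound such region is printed to show the sequence under it, as 151 bases of hg38 at the median summit, with the same capitals as above.
HNF4A, chr20:44394654-44394804, plus strand: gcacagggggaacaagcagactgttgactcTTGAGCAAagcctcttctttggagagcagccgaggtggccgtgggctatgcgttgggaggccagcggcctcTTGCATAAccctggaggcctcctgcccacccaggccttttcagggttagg
FOXA1, chr14:37588242-37588392, minus strand: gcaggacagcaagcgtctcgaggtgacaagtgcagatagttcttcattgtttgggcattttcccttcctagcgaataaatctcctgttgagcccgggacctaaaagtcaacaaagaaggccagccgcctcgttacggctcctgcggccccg
FOXA2, chr20:22534168-22534318, minus strand: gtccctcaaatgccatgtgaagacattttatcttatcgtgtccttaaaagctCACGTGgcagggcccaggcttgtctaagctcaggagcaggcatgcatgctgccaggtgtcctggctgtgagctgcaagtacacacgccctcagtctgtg
FOXA3, chr19:45882872-45883022, plus strand: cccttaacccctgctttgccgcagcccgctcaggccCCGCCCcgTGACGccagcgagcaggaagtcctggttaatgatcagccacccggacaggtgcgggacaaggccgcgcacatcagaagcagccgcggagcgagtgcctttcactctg
CEBPA, chr19:33276156-33276306, minus strand: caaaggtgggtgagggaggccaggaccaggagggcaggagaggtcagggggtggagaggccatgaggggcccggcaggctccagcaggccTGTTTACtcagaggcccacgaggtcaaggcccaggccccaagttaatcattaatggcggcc

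The HNF4A region held 2 C/EBP words, at positions 31 and 102, and the CEBPA region 1 FOXA word at position 91. The FOXA2 region held 1 E-box, the FOXA3 region 1 GC box and 1 CRE word and the FOXA1 region 0 of the words, so 3 of these 5 regions held no C/EBP, FOXA, HNF4, NR5A2 or ONECUT word. Of 10504 regions with at least 31 lists in the whole genome, 4.44% hold the C/EBP word, 4.55% the FOXA word, 6.08% the E-box, 15.9% the CRE word and 34.1% the GC box in the same length. No factor is inferred from a match.

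ONECUT1 had 1 region of 32 lists at its promoter, and the next, 34405 bp upstream, held 13. NR5A2 had a region of 27 lists 13109 bp downstream, in its own intron, and a second of 3 lists 14896 bp downstream, 219 bp from an alternative start. PROX1 had 27 lists in a region 1530 bp downstream, 215 bp from an annotated start, and 21 in a region 5012 bp upstream.

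Input libraries were compared because lists that share one share its background. In the 8 libraries that serve at least 6 preferred lists, the share of lists at HNF4A ran from 30% to 100% (median 75%), at CEBPB from 16.7% to 83.3% and at FOXA1 from 0% to 85.7%. It ran from 14.3% to 83.3% at FOXA2, from 16.7% to 57.1% at CEBPA, from 0% to 71.4% at ONECUT1, from 0% to 50% at FOXA3 and from 0% to 42.9% at PROX1, and was 0% at NR5A2 in all 8. List length also differed between the libraries. The library with 30% at HNF4A and 0% at FOXA1 had the shortest lists, with a median of 1033 peaks, but the one with 83.3% at CEBPB had a median of 4978 peaks and the one with 16.7% there a median of 6850.5. The libraries with 83.3% and 16.7% at CEBPB had 14.4% and 16.7% over all coding promoters. The part of list length in the shares was not tested.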

How the data were processed

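Per the labels and the paper's methods, the authors made optimal peak calls on hg38 against input libraries with a local copy of ENCODE's ChIP-seq pipeline. Aligner and caller versions: not given in the sources used here. The deposited lists give a score of 540 to 1000 (540 being an irreproducible discovery rate of 0.0501), a signal not scaled between lists, and a q column read here only as a score, since values below 0 occur in 43 lists. Signal served only for ranks within a list. All peaks lie within the chromosome lengths of the hg38 reference. A promoter was 500 bp on either side of a GENCODE 44 TSS, and alternative clusters chained coding starts at gaps of at most 1000 bp. Wilson intervals, Fisher's exact and McNemar tests used scipy 1.17.1, pandas 2.3.3 and numpy 2.4.6 under Python 3.11.15, and were tested on simulated data. Families were assigned by hand and not checked against protein domains. The p-values measure only the spread between lists, which are single and partly share input libraries. Named were all 9 genes, the lists with a peak where at most 60 had one and those without otherwise, clusters with a list, regions of at least 31 lists or the top 2, the 2 most alike promoters, the 3 genes of each comparison list with most lists and the 2 with fewest, and up to 5 lists at the most and the fewest members. The 10 lists tied at 7 promoters go past that limit, the 14 at none were not named, and ZNF74 and the lists picked out for rank, role or summit place were chosen after their values were seen. The genes and lists were chosen with earlier results of these data known. Alternatives changed window, peak threshold, lists, transcripts and merging. Of the motif words planned, 1 is not reported here, nor is the sequence of 1 distal region.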

Additional observations from a re-analysis of the deposited data

Results flagged for a closer look

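Among the 6 non-preferred lists, which entered no comparison above, 2 had peaks at more than 3 member promoters, a fixed limit that takes no account of list length. Lists of usual length pass this limit easily: preferred lists at 4 member promoters had a median of 10905 peaks, those at 5 a median of 15944 and those at 6 a median of 17584.5. TSC22D2, with 11692 peaks, had a peak at 6 of the 9 canonical promoters (HNF4A, FOXA1, FOXA2, CEBPA, CEBPB and ONECUT1) and within 50 kb of all 9 genes. ZNF431, with 14575 peaks, had a peak at 4 (HNF4A, FOXA2, CEBPA and ONECUT1). The counts of both lists are given without their shares of all coding promoters, so they have no background. EP300, an acetyltransferase of enhancers, had 3 (FOXA2, CEBPB and PROX1), TUT4 had 2, ZZZ3 had 1 and GPBP1L1, with 73 peaks, had 0.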

How the results depend on the processing

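The median share of lists over the 9 canonical promoters was 39.7%. It was 20.7% with peaks of a score of at least 830 and 24.8% with a q column of at least 2, and 34.7% to 42.98% under the other settings, with 37.4% to 40.4% when the lists of 1 input library were left out in turn. With transcripts of every type 29072 alternative clusters were called, against 10263, since more clusters are tested. Highly bound regions within the windows of the 9 genes numbered 62 at 100 kb and 20 with a score of at least 830, against 38. The other alternatives for regions gave 28 to 38. Of the single values, 42 moved, 251 did not, and 0 tested values crossed the threshold of their test. The 251 include the comparisons by kind of list, counted as unmoved wherever the adjusted p stayed above 0.05, whatever the difference. At FOXA1, for example, non-TF minus TF lists was 2.39 percentage points, and -10.1 with a score of at least 830. The number of members at 31 lists or more was 3 with a score of at least 830 and 4 with a q column of at least 2, against 6. FOXA1 was at 37.2% of lists with a 250 bp half-width and 73.6% with 1000 bp, against 51.2%, and the HNF4A P1 count stayed lower than P2, with a difference of -29 to -15 lists and adjusted p of 0.000112 to 0.0481 (exact McNemar test). No fit with a replicate block was possible because the labels give each DAP 1 list and no replicate numbers, and the McNemar tests pair the starts within each list.

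Limits: with 1 list per DAP there is no replicate error, depth is unknown, and a short list has few chances of a peak at any promoter. A promoter without a peak is one without a called peak, not one without binding. Tags and antibody are shared by all lists.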
